A study of Mus musculus with 8 samples.

Results

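Small nucleolar RNAs (snoRNAs) of mammals mostly lie in introns of longer genes, and *Gas5* and the *Snhg* genes are hosts of this kind, most of them with a spliced RNA that is not known to make a protein. Their levels were followed here in the primary motor cortex (M1) of mice that received an shRNA against *Fezf2*, which encodes a transcription factor of layer 5 projection neurons. The 8 members are *Gas5*, *Snhg1*, *Snhg3*, *Snhg6*, *Snhg8*, *Snhg11*, *Snhg12* and *Epb41l4aos*. They were chosen by name after log2 fold changes and counts of these same libraries were known, so the treatment values of the members are given as a description, without a test. Transcripts were assigned to 38031 genes, and 6 of the 8 members had a counted transcript. No transcript of *Snhg1* or *Snhg8* in the annotation used here was matched, and both are described only through the snoRNAs inside them. Of the 6, *Gas5*, *Snhg3* and *Snhg11* passed the filter on low counts (CPM, the counts scaled to a common library size, above 8 in at least 4 libraries), as did 9959 genes in all.

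RNA-seq of total RNA was made from male Swiss Webster mice with a lentivirus injected into M1 between postnatal days 21 and 25. The virus carried an mCherry reporter and either *Fezf2 shRNA* (4 libraries) or *non-silencing shRNA* (the control, 4 libraries), placed behind a fragment of the rat *Synapsin I* promoter, which is active in neurons. The mCherry-positive M1, with all layers and the meninges, was dissected 4 weeks later, at days 49 to 53, so that each library holds transduced neurons together with every other cell of the tissue. In such bulk tissue fewer cells of a type and less RNA per cell cannot be told apart. The labels do not tie the libraries to single mice, so the errors measure the spread between libraries, whatever its source.

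After splicing of a host transcript, the excised intron is trimmed to the snoRNA. Box C/D snoRNAs guide 2'-O-methylation of ribosomal and other RNAs, and box H/ACA snoRNAs guide pseudouridylation. The spliced RNA of many non-coding hosts, *Gas5* among them, carries short open reading frames and is removed by nonsense-mediated decay, and many host genes begin with a tract of pyrimidines (5' TOP) that ties translation to growth signals. *Gas5* takes its name from growth arrest, in which its RNA accumulates, and its RNA is known to bind the glucocorticoid receptor.

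The snoRNAs below are those inside the members whose intervals averaged 100 or more reads, since they take much of the counts of *Snhg3* and mark places along *Gas5*. Of those in *Gas5*, only *Gm22357* lies inside the interval that represents the gene. They are given 5' to 3' on the GRCm38 build, from the GENCODE M21 transcripts. In the 4 from *Gas5* the capitals mark the C box TGATGA, within the first 20 bases, and the D box CTGA, within the last 12. In the 2 from *Snhg3* they mark ACA at 3 bases from the 3' end. None of these was found in the 2 from *Snhg11*, which are printed without capitals. Both of them have aca as their last bases, which the search at 3 bases from the end does not count.
Gm22357 (*Gas5*, chr1:161036057-161036139, + strand): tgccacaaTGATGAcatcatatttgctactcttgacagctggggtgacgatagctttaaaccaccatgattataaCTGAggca
Snord80 (*Gas5*, chr1:161037601-161037681, + strand): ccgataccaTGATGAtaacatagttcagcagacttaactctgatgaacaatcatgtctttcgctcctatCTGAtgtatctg
Snord47 (*Gas5*, chr1:161038082-161038158, + strand): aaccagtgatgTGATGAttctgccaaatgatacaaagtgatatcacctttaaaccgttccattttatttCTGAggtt
Gm25789 (*Gas5*, chr1:161038308-161038383, + strand): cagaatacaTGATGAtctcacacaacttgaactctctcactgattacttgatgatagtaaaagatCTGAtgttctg
Snora73b (*Snhg3*, chr4:132352322-132352526, - strand): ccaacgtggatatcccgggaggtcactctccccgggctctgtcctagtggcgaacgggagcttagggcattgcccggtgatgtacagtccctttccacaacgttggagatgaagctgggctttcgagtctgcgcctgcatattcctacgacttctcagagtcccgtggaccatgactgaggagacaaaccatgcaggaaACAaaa
Snora73a (*Snhg3*, chr4:132352775-132352979, - strand): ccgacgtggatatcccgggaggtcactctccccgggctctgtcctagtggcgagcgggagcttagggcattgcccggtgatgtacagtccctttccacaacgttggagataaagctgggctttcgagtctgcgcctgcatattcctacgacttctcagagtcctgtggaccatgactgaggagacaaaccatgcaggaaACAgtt
Gm25187 (*Snhg11*, chr2:158378222-158378354, + strand): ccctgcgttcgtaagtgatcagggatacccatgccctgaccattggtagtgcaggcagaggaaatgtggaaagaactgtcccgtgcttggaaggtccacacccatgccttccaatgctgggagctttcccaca
Gm25129 (*Snhg11*, chr2:158379534-158379666, + strand): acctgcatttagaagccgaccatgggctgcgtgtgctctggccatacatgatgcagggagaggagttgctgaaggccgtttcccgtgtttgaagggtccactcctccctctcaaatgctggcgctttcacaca

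*Snora73a* and *Snora73b* have 205 bases each and differ at 7 of them (96.6% identity), so the assignment of reads between these near-identical copies is uncertain. *Gm25187* and *Gm25129* are less alike, with 68.4% identity over 136 aligned positions. Of the 30 snoRNA genes annotated inside the members, 28 had counts. The C and D boxes, searched on the snoRNA's own strand in windows that do not overlap, were both present in 12 of the 28, against 19.7% of 1507 annotated mouse snoRNAs, and the ACA in 7 of the 28, against 18.3% of the same 1507. *Mir5117* in *Gas5*, annotated as a snoRNA under a microRNA symbol, is counted in both.

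The starts of the hosts are shown because a pyrimidine tract there is the mark of a 5' TOP gene. Each line gives 20 bases before the annotated start and 30 from it on (RefSeq, GRCm38.p6), with the run of C and T that begins at the start in capitals. The promoter table matched 6 members with 7 starts, and those of *Gas5*, *Snhg8* and *Snhg1* are printed.
*Gas5*, first start (chr1:161034581-161034630, + strand): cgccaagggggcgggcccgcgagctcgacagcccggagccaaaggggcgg
*Gas5*, second start (chr1:161035146-161035195, + strand): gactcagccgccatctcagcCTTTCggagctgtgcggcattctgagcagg
*Snhg8* (chr3:123508307-123508356, - strand): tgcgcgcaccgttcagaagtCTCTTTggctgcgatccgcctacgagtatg
*Snhg1* (chr19:8723467-8723516, + strand): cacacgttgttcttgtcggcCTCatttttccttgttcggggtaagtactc

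A start with C followed by at least 4 bases that are C or T was found at 2 of the 7, the second start of *Gas5* and that of *Snhg8*, and at 2.51% of all 32851 annotated starts. The tract of *Snhg1* has 3 bases, and that of *Snhg12* has 6 but opens with T. The matches describe annotated starts, and no start was measured in these libraries.

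The libraries had 54684016 to 58003814 counts on genes. Counts are given normalized, that is divided by the effective library size (edgeR's TMM) and multiplied by its mean. *Fezf2* itself had 687.5 to 767.0 normalized counts in the 4 control libraries and 568.3 to 620.6 in the 4 *Fezf2 shRNA* libraries, a log2 fold change of -0.29 with an adjusted p of 0.0824 (edgeR's quasi-likelihood test). Markers of neurons were abundant in every library, with summed normalized counts of 193969 to 217539 in controls and 201628 to 211175 with *Fezf2 shRNA*. Those of mature oligodendrocytes summed to 61590 to 111708 in controls and 45872 to 75266 with *Fezf2 shRNA*, and all 6 of the 7 markers that passed the filter had negative log2 fold changes (median -0.53, none past the threshold). Summed markers of oligodendrocyte precursors, astrocytes, microglia and endothelial cells overlapped between the treatments, and no marker list was at 0. The part of these cell types in the values of the hosts was not tested.

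*Gas5* was lower on average with *Fezf2 shRNA*. The gene (ENSMUSG00000053332) lies on the + strand at chr1:161034422-161038539 and is represented by the interval 161035172 to 161036629, which spans 1458 bases with 4 exons and their introns. Control replicates 1 to 4 had 626, 510, 758 and 707 normalized counts, and *Fezf2 shRNA* replicates 1 to 4 had 501, 411, 467 and 592. The groups overlapped, because control replicate 2 lay below *Fezf2 shRNA* replicate 4, whereas the other 3 controls were above all *Fezf2 shRNA* libraries. The means were 650 ± 108 and 493 ± 76.1 (SD, n = 4), a log2 fold change of -0.40 with a standard error of 0.14, or 75.8% of the control level. In raw reads, the libraries held 409 to 771 on this interval.

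*Snhg3*, the host of the *Snora73* pair, had a fold change close to that of *Gas5* but a wider spread. It lies on the - strand at chr4:132348014-132353686, and its interval, 132352004 to 132353336, spans 1333 bases. The controls had 2603, 2232, 3376 and 1728 normalized counts and the *Fezf2 shRNA* libraries 1761, 1455, 2531 and 1909. The lowest control, replicate 4, lay below 3 of the *Fezf2 shRNA* libraries. Means were 2485 ± 694 and 1914 ± 453 (SD, n = 4), with a log2 fold change of -0.38 and a standard error of 0.20. The antisense gene *Gm17300* covers 1611 bases of *Snhg3*, had a mean of 2201 normalized counts and cannot be told apart from it, since the counting is not stated to use strand. *Rcc1*, on the same strand, also overlaps 5592 bases of the gene.

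*Snhg11*, which lies on the + strand at chr2:158375638-158386145 and is annotated as protein-coding, was the member with the most reads. The controls had 11075, 9707, 11210 and 11015 normalized counts and the *Fezf2 shRNA* libraries 12789, 8618, 10614 and 13065. Both the highest and the lowest values were in *Fezf2 shRNA* libraries, so the control range lay inside theirs. The log2 fold change was 0.07 with a standard error of 0.12.

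The remaining members with counts passed only a lower filter of more than 1 CPM, and their log2 fold changes come from the fit with that filter. *Snhg6*, at chr1:9941959-9944118 on the - strand, had 137, 66.1, 128 and 138 normalized counts in the controls and 82.8, 113, 117 and 106 with *Fezf2 shRNA* (log2 fold change -0.16, standard error 0.24). Control replicate 2 was below every *Fezf2 shRNA* library and the other 3 controls were above them all. *Snhg12*, at chr4:132308623-132311024 on the + strand, had 241, 193, 159 and 286 in the controls and 226, 207, 207 and 286 with *Fezf2 shRNA* (0.08, standard error 0.19). *Epb41l4aos*, at chr18:33794892-33795986 on the + strand, had 94.4, 55.7, 99.3 and 78.8 in the controls and 114, 47.2, 56.7 and 99.1 with *Fezf2 shRNA* (-0.05, standard error 0.30). In both genes the treatments overlapped over most of their range.

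**Figure D1:**
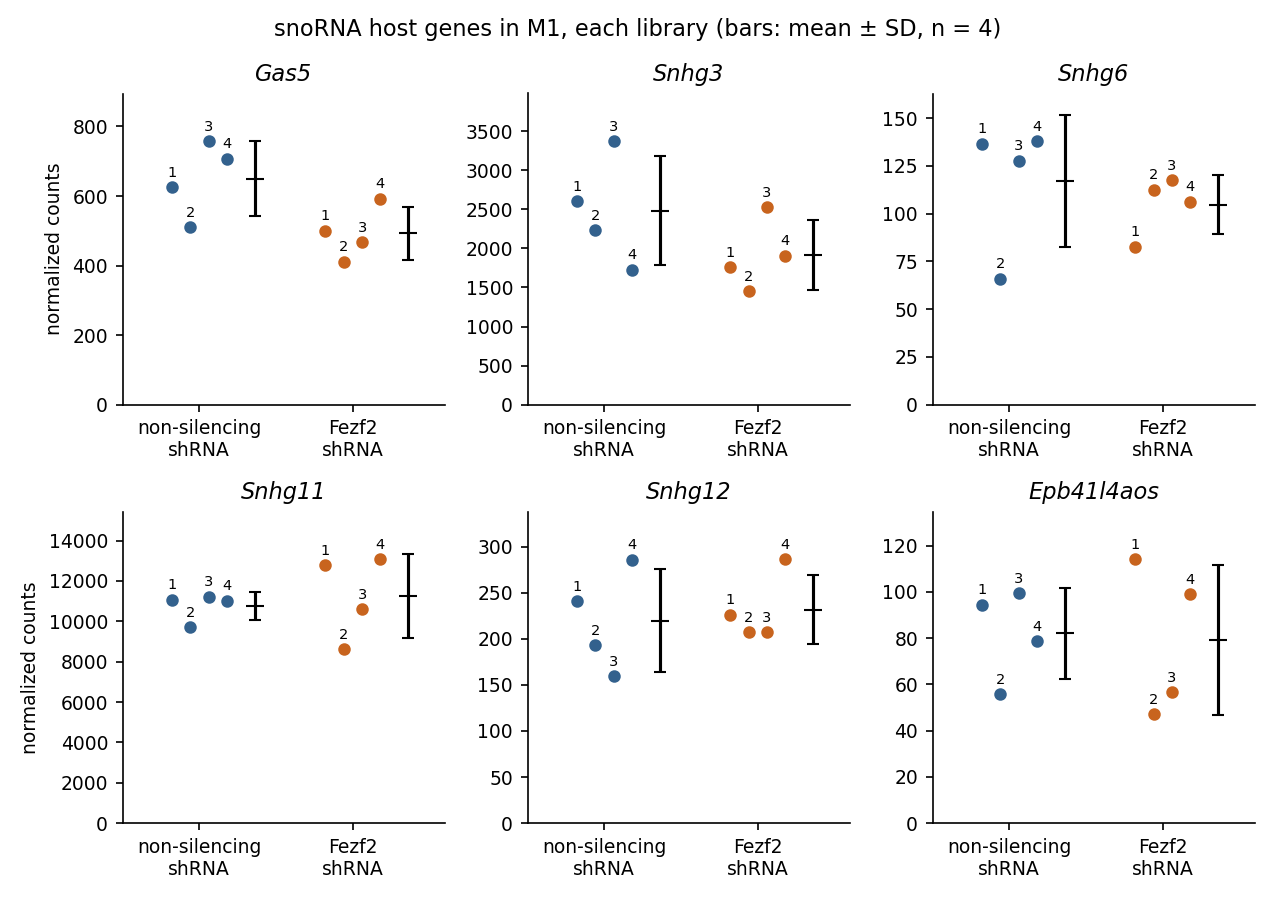
Normalized counts (y axis, from 0) of the 6 members with counts in each library, labelled by replicate number, for *non-silencing shRNA* and *Fezf2 shRNA*; bars are the mean ± SD (n = 4). The treatments overlap in all 6 genes, and *Gas5* has 3 of 4 controls above every *Fezf2 shRNA* library.

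Over the members with counts, 4 had negative and 2 positive log2 fold changes, with a median of -0.10. Negative values were found in 56.6% of the 9959 genes tested and 55.7% of those over 1 CPM, and the median of the genes tested was -0.03. None of the 6 had treatments that did not overlap (11.8% of genes tested in either direction, 4.41% with lower values under *Fezf2 shRNA*, and 10.2% of those over 1 CPM), and none was past the threshold of an adjusted p of 0.05 and an absolute log2 fold change of 0.2 in edgeR, where the fit called 2.09% of genes, 1.96% higher and 0.131% lower (0.51% with the lower filter). No member was past it here in DESeq2 either, which called 7.55% of genes without its prior, nor in any other alternative fit. Calls were rarer among short genes, with 1 higher and 9 lower of the 2153 tested under 10 kb (edgeR). The paper, which used an older version of DESeq2, does report *Gas5* among its changed genes. It describes *Gas5* as a target that *Fezf2* repressed in development and activates in mature tissue. Why the calls for *Gas5* differ was not tested.

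Levels between the members are compared per kb of counted interval, introns included. In controls *Snhg3* had 1864 ± 520 normalized reads per kb (SD, n = 4), *Snhg11* 1023 ± 66.7, *Gas5* 446 ± 74.3, *Snhg6* 134 ± 39.4, *Snhg12* 92.0 ± 23.2 and *Epb41l4aos* 75.0 ± 17.9. Ranges of neighbours did not overlap between *Snhg3* and *Snhg11*, *Snhg11* and *Gas5*, or *Gas5* and *Snhg6*, whereas *Snhg6*, *Snhg12* and *Epb41l4aos* overlapped with their neighbours in that order. With *Fezf2 shRNA* the order of the means was the same, and the ranges of *Snhg3* and *Snhg11* then overlapped as well, although *Snhg3* was the higher in each of the 4 libraries. The place of *Snhg3* rests on the interval that represents it, since its widest interval, of 5650 bases, had 445 normalized reads per kb in controls, below the 1023 of *Snhg11*.

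The reads of *Gas5* were not lower throughout the gene. All 25 of its transcript intervals had negative log2 ratios, from -0.40 to -0.01, but these intervals share reads. An interval of 759 bases at the 3' end (161037781 to 161038539) had 373 ± 39.4 normalized counts in controls and 369 ± 23.0 with *Fezf2 shRNA* (log2 ratio -0.01, standard error 0.09). It contains *Snord47* and *Gm25789*, whose intervals averaged 285 and 202 reads, where the whole 3' interval averaged 371. The 3' count is therefore largely one of reads that reach into snoRNAs. The reads of the widest interval that lie outside the 3' interval had 926 ± 118 and 688 ± 105, a log2 ratio of -0.43 with a standard error of 0.15. The ratio of counts on the 5' interval used for the gene to counts on the 3' interval was 1.72, 1.58, 1.90 and 1.73 in the controls and 1.31, 1.12, 1.38 and 1.53 in the *Fezf2 shRNA* libraries. All 4 controls were thus above all 4 *Fezf2 shRNA* libraries in this ratio, which was looked at after the interval values were seen. The ratio was not taken for other genes, so no share over all genes can be set beside it. In plain counts, the treatments did not overlap in 11.8% of genes tested. Over the widest interval, which holds both ends, the log2 ratio was -0.30 (standard error 0.12).

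**Figure D2:**
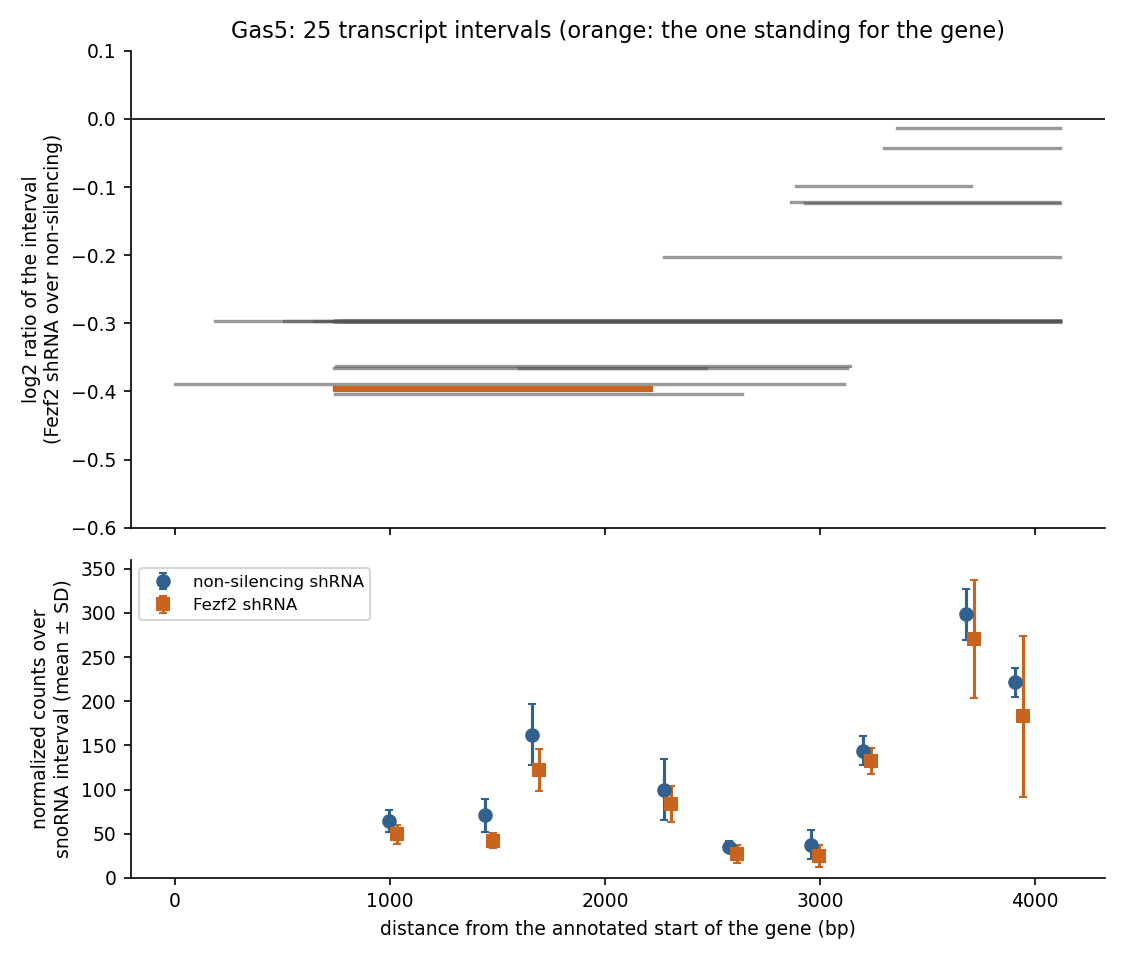
Upper panel, log2 ratio of *Fezf2 shRNA* over *non-silencing shRNA* (y axis) for the 25 transcript intervals of *Gas5*, each drawn from its first to its last base as the distance from the gene start (x axis, bp); lower panel, mean ± SD (n = 4) of normalized counts on the 9 counted snoRNA intervals at their place in the gene. The 5 intervals that start closest to the 3' end run from -0.12 to -0.01, and the interval that represents the gene is at -0.40.

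The intervals of the other members, which within a gene also share reads and so are not separate values, had one direction in 4 of 5 genes. Those of *Snhg3* (5 of 5, -0.37 to -0.34), *Snhg6* (5 of 5, -0.20 to -0.11) and *Epb41l4aos* (2 of 2) were negative and those of *Snhg11* (5 of 5, 0.05 to 0.21) positive, whereas 3 of 7 were negative for *Snhg12*. In *Snhg3* nearly all reads lay in a single place, which all 5 intervals contain at least in part. The 1 kb interval that holds *Snora73b* and most of *Snora73a* took 94.7% to 98.8% of the reads of the widest interval. Outside it there were 48.2 ± 14.3 normalized counts in controls and 70.6 ± 13.3 with *Fezf2 shRNA*, a log2 ratio of 0.57 (standard error 0.25), opposite in sign to that of the whole.

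The snoRNA intervals count any read that reaches into them, including reads from unspliced host RNA, so they do not measure the mature snoRNA alone. *Snora73a*, a box H/ACA RNA that acts in the processing of ribosomal RNA, overlapped 54.5% to 78.5% of the reads of *Snhg3* on 3.63% of its span. It had 1786, 1673, 1851 and 1285 normalized counts in the controls and 1359, 1180, 1889 and 1423 with *Fezf2 shRNA*, a log2 fold change of -0.17 with a standard error of 0.15. *Snora73b* had 742, 544, 1470 and 395 in the controls and 339, 216, 604 and 456 with *Fezf2 shRNA*, a log2 fold change of -0.96 with a standard error of 0.40. Control replicate 3 held by far the most *Snora73b* reads, and control replicates 2 and 4 lay within the *Fezf2 shRNA* range.

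Within *Gas5*, all 9 counted snoRNA intervals had lower means with *Fezf2 shRNA* (log2 ratios -0.73 to -0.12). Of the 382 genes tested that span under 2 kb, 314 had negative log2 fold changes. Those genes all passed the filter of 8 CPM, about 450 reads, whereas the 9 intervals averaged 31.25 to 285 reads, so the shares are not matched. The 9 include *Mir5117*, which is annotated as a snoRNA but has the symbol of a microRNA. *Gm22357*, in the 5' part, had 163, 116, 199 and 170 normalized counts in the controls and 122, 118, 95.5 and 153 with *Fezf2 shRNA* (log2 ratio -0.40, standard error 0.22). *Snord80* had 122 to 160 and 110 to 145 (-0.12, standard error 0.12). *Snord47*, with the most reads of these, had 269 to 330 in the controls and 323, 306, 281 and 174 with *Fezf2 shRNA* (-0.17, standard error 0.22). All its *Fezf2 shRNA* libraries but replicate 4 lay within the control range. *Gm25789* had 205 to 245 in the controls and 238, 223, 46.8 and 223 with *Fezf2 shRNA*, where replicate 3 stood apart and the others lay within the control range. *Gm22489*, named after its values were seen, was the 1 interval of the 28 whose treatments did not overlap, with 53.7 to 88.5 and 33.2 to 53.5, and 10.2% of genes over 1 CPM had treatments that did not overlap.

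*Gm25187* and *Gm25129* in *Snhg11* each took between 1.14% and 2.09% of the reads of the gene on 1.27% of its span, and their log2 ratios were 0.09 and -0.07 (standard error 0.17 for each). With the reads expected from the flanking host interval taken away (values under 0 set to 0), these became 1.46 and -0.87, so neither is a stable value, whereas the ratios of the 6 in *Gas5* and *Snhg3* ran from -0.98 to -0.08 after the same step. Among the snoRNAs with fewer reads, *Snord87* took 30.3% to 49.6% of the reads of *Snhg6*. The 8 snoRNAs inside *Snhg1* had means of 9.38 to 53.8 reads and 6 negative log2 ratios, and *Snora24* inside *Snhg8* had 19.2 reads, so the hosts themselves could not be described from them. Over the members 22 of the 28 log2 ratios were negative. So were the log2 fold changes of 314 of the 382 genes tested that span under 2 kb, but those genes all passed 8 CPM. Most of the 28 intervals had fewer reads, and the share of short genes moved with the filter. Under 10 kb, 83.4% of genes were negative at 8 CPM, 72.7% at 1 CPM and 55.7% with no filter (edgeR).

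**Figure D3:**
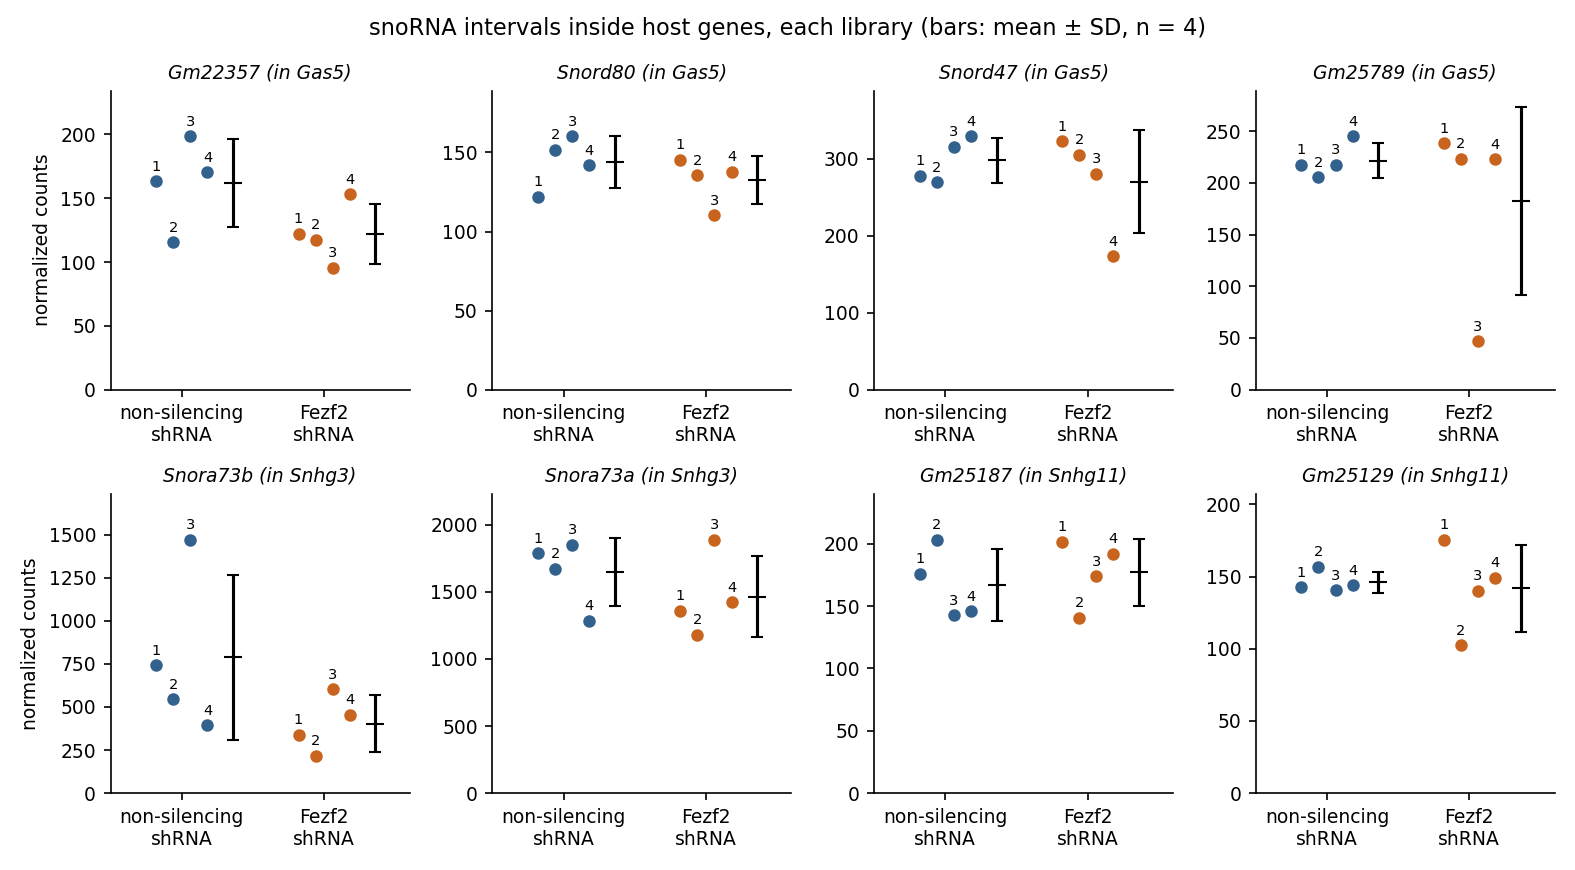
Normalized counts (y axis, from 0) on the 8 snoRNA intervals that averaged 100 or more reads, shown per library by replicate number, with mean ± SD (n = 4). The treatments overlap in all 8, and *Gm25789* is at 46.8 in *Fezf2 shRNA* replicate 3 against 222.7 to 238.2 in the other 3.

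To set the members beside genes of the same kind, other hosts were taken from the annotation as genes that hold a *Snora*, *Snord* or *Scarna* gene on their own strand. Of 85 found, 80 had counts and 65 were tested, of which 63 are protein-coding. None was past the threshold with edgeR, where 2.09% of all genes tested were called. At an unadjusted p under 0.05 (edgeR), 16 were lower and 1 higher with *Fezf2 shRNA*, where 770 were lower and 1177 higher among all 9959 genes. DESeq2, which called 7.55% of all genes without its prior, also called 0 of the hosts. Calls were rare among short genes, and 40 of the 65 hosts span under 10 kb. Of all 2153 genes tested under 10 kb, edgeR called 1 higher and 9 lower. Of the 1704 over 100 kb it called 163 higher and 0 lower. The smallest adjusted p was 0.128 (edgeR), for *Rabggtb*. Negative log2 fold changes were found in 57 of the 65, against 56.6% of all genes tested, and the median was -0.12, against -0.03.

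These hosts are short, with a median span of 6.50 kb where the genes tested had one of 28.5 kb, and log2 fold changes in these libraries moved with span. The median over all genes was -0.12 under 10 kb, -0.07 from 10 to 30 kb, 0.01 from 30 to 100 kb and 0.18 over 100 kb. Under 10 kb, all 40 hosts were negative (median -0.14), as were 83.4% of all 2153 genes of that span, and 14 of the 40 were lower at an unadjusted p under 0.05, as were 348 of the 2153 (edgeR). Many of the 40 are genes of ribosomal proteins (*Rpl* and *Rps* symbols), so they are not 40 unrelated genes. With an offset for span in the fit, 30 of the 40 were negative against 54.9% of all genes under 10 kb. With that offset *Gas5* had a log2 fold change of -0.29 and *Snhg3* of -0.25.

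**Figure D4:**
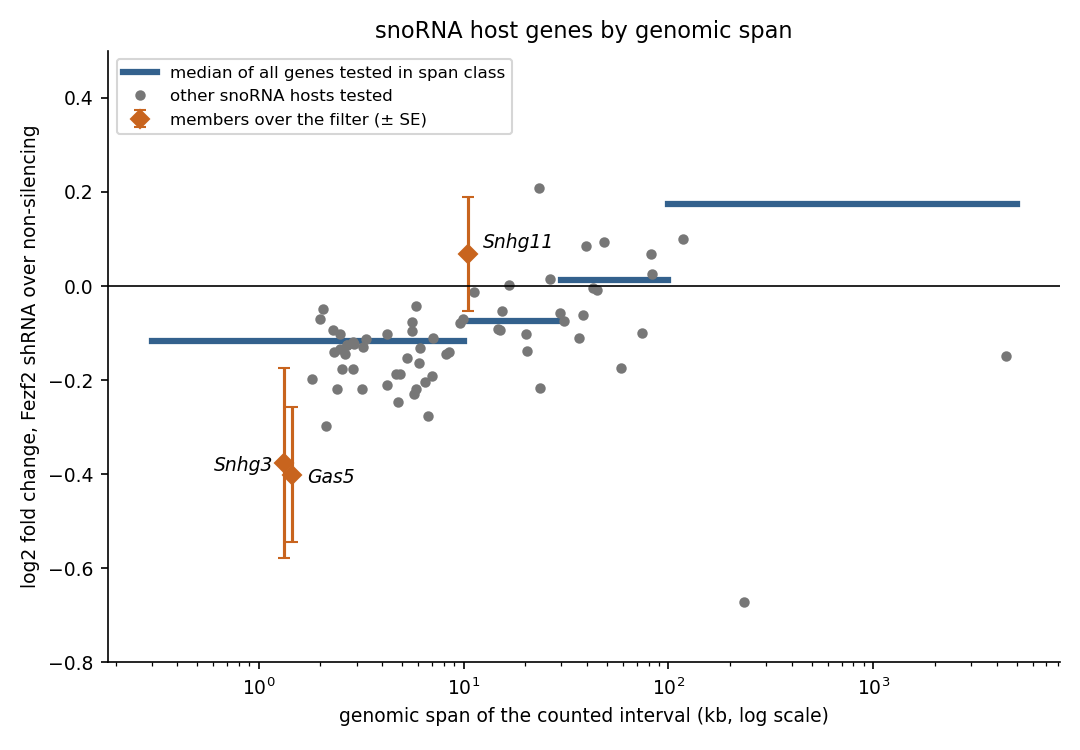
Log2 fold change (y axis) against the genomic span of the counted interval (x axis, kb, log scale) for the 65 other snoRNA hosts tested and the 3 members over the filter (± SE); blue lines are medians of all genes tested in 4 classes of span. The 40 hosts under 10 kb lie between -0.30 and -0.04 (median of all genes of that span -0.12), with *Gas5* at -0.40 and *Snhg3* at -0.38.

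Of the other hosts annotated as non-coding, 10 had more than 1 CPM, 7 with negative log2 fold changes and 0 past the threshold (edgeR, 3 lower and 0 higher at an unadjusted p under 0.05, beside 1010 and 1607 of all 16481 genes over 1 CPM). The class is that of the annotation, which has *Cct6a* among the 10 as a processed transcript. *Gm28496*, also among the 10, overlaps the protein-coding host *2410002F23Rik*, with control means of 1288 and 1272 normalized counts. The treatments did not overlap in 3 of the 10, and in 10.2% of all genes over 1 CPM. *Snhg15* had 71.0 to 103 normalized counts in controls and 37.2 to 59.7 with *Fezf2 shRNA*, without overlap (log2 fold change -0.80, standard error 0.22, edgeR adjusted p = 0.121). *Snhg5* had 164 to 223 and 136 to 158, also without overlap (-0.36, standard error 0.15, edgeR adjusted p = 0.295). *Dancr* (-0.27, standard error 0.31) and *Zfas1* (0.11, standard error 0.20) overlapped between treatments. The treatments of *2410006H16Rik*, named after its values were seen, did not overlap either (-0.32, edgeR adjusted p = 0.243).

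**Figure D5:**
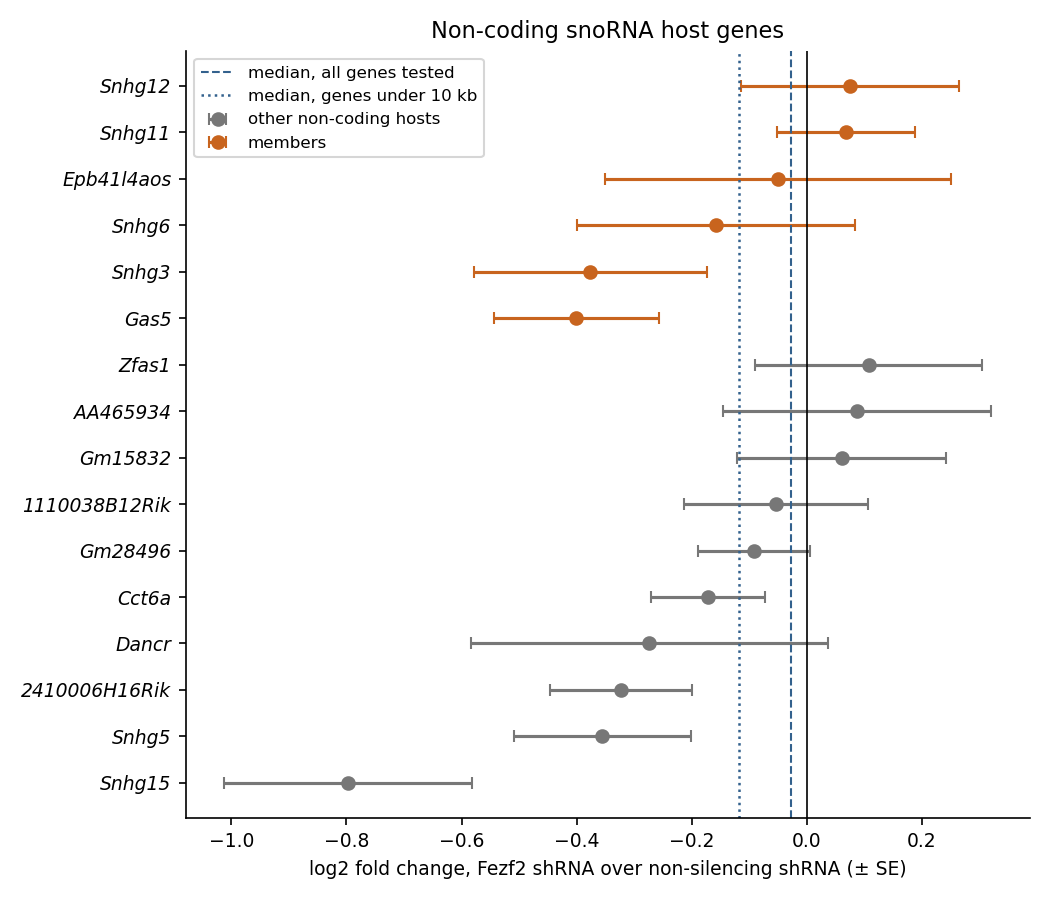
Log2 fold changes of *Fezf2 shRNA* over *non-silencing shRNA* (x axis, ± SE) of the 6 members with counts (orange) and the 10 other hosts annotated as non-coding and over 1 CPM (grey), with the medians of all genes tested (dashed, -0.03) and of those under 10 kb (dotted, -0.12). Values run from -0.80 for *Snhg15* to 0.11 for *Zfas1*, and no host is past the threshold.

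The proteins that work with these RNAs were covered by 5 lists from textbook knowledge, with 36 of 48 genes tested and none past the threshold in edgeR (3 higher and 3 lower at an unadjusted p under 0.05, beside 1177 and 770 of all 9959 genes). Among the box C/D core proteins (3 tested) *Nop56*, a scaffold of the methylation complex and itself a snoRNA host, had the smallest p, with a log2 fold change of -0.30 (edgeR adjusted p = 0.185). Among the box H/ACA core proteins (2 tested) it was *Dkc1*, the pseudouridine synthase, with -0.20 (edgeR adjusted p = 0.276). *Naf1*, which assembles H/ACA particles, had 0.30 (edgeR adjusted p = 0.144) among 7 assembly factors. Among 15 factors of nonsense-mediated decay, the pathway that removes spliced *Gas5* RNA, *Smg8*, a subunit of the SMG1 kinase complex, had -0.40 (edgeR adjusted p = 0.0722). Among 9 regulators of 5' TOP messages *Akt1s1*, an inhibitor within mTOR complex 1, had -0.24 (edgeR adjusted p = 0.169). DESeq2 called *Smg8* alone of the 36, where it called 7.55% of all genes without its prior and 7.37% with it.

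Over the 8 libraries, the genes tested whose log2 normalized counts were most like those of *Gas5* were *Psip1* (Pearson's r 0.961), *Lmnb2* (0.958), *Pcnt* (0.957), *Fam120aos* (0.956) and *Tank* (0.941). By Spearman's rho, only *Psip1* was again among the first 5. These are the highest of the values for 9959 genes, over 8 points that share the treatment difference. The r with *Gas5* was 0.64 for *Epb41l4aos*, 0.52 for *Snhg3*, 0.48 for *Snhg6*, 0.47 for *Snhg11* and 0.09 for *Snhg12*. Control replicate 2 was the lowest control for *Gas5*, *Snhg6*, *Snhg11* and *Epb41l4aos*, but not for *Snhg3* or *Snhg12*.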

How the data were processed

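The deposited counts are raw read counts per Ensembl transcript that the authors made with TopHat2 2.1.1 on mm10 (GRCm38) and bedtools 2.26.0 multiCov, after adapter trimming of paired reads from a stranded total RNA kit. The versions are those of the submitters' processing notes. The intervals behave as whole transcripts, introns included. Whether strand was used, and how mates and reads with several alignments were counted, is not given in the sources used here. The authors' table of their own comparison (base means, fold changes, p-values) was not used.

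Of 94647 transcripts, 91320 matched GENCODE M21 (1.82% of counts did not). A gene is the transcript with the lowest Ensembl number. Genes over 8 CPM in at least 4 libraries were tested with edgeR 4.0.16 (TMM, quasi-likelihood, Benjamini-Hochberg adjustment over all genes tested, no covariate) in R 4.3.3, with a threshold of adjusted p 0.05 and absolute log2 fold change 0.2. Members under that filter take their values from the fit over 1 CPM. Log2 ratios of intervals are differences of mean log2 normalized counts with a pseudocount of 0.5. Python 3.11.15, pandas 2.3.3, scipy 1.17.1 and matplotlib 3.10.9 did the rest. The edgeR step was tested on simulated data. It recovered 49% of genes changed by an absolute log2 fold change of 0.4 and 99% of those changed by 0.8, with 1.99% false calls. Changes of about 0.4 were thus often missed at this threshold in the simulation. It drew genes independently and without an effect of span, so these shares do not carry over directly to the libraries.

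Members and lists were chosen with earlier results of these data known. Named are the members, their snoRNAs with a mean of at least 100 reads, *Fezf2*, the 5 other hosts with the smallest p in each direction past the threshold, non-coding hosts with *Snhg* symbols, *Zfas1* and *Dancr*, every gene of the protein lists past the threshold or else the one with the smallest p, and the 5 genes most like *Gas5*. Alternatives were other normalizations, filters and intervals, DESeq2 1.42.0, an offset for span, the replicate number as a block, and each library left out. The libraries held 54684016 to 58003814 counts, and the standard errors hold both the spread between libraries and the counting error, the latter being larger for features with few reads.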

Additional observations from a re-analysis of the deposited data

Results flagged for a closer look

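In 28 groups of 4 libraries (members and their snoRNAs with most reads, per treatment), 3 had 1 library far from the other 3 by Dixon's criterion, where chance gives about 1 in 20. *Snhg6* had 66.1 normalized counts in control replicate 2, against 128 to 138 in the other controls. *Snhg11* had 9707 in the same library, against 11015 to 11210. *Gm25789* had 46.8 in *Fezf2 shRNA* replicate 3, against 222.7 to 238.2 in the other 3.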

How the results depend on the processing

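No member passed the threshold under any of the 18 alternatives. *Gas5* stayed negative in all 18 (-0.50 to -0.29), as did *Snhg3* (-0.53 to -0.18), the median of the members (-0.27 to -0.01) and *Snhg6* in all 17 it had (-0.35 to -0.04). *Snhg11* was negative in 1 of 18 (-0.01 to 0.18), *Snhg12* in 2 of 17 (-0.05 to 0.23), and *Epb41l4aos* positive in 5 of 17 (-0.28 to 0.13). *Snhg6* moved from -0.16 to -0.35 without control replicate 2 and to -0.06 without *Fezf2 shRNA* replicate 1. The median log2 ratio of the 8 snoRNA intervals (-0.18) was -0.30 with the reads of the flanking host interval taken away. The count of all genes past the threshold (208) became 752 and 734 with DESeq2 without and with its prior, 84 with a filter of 1 CPM, 103 with none and 2 with the span offset. Leaving out 1 library gave 0 to 368, with 0, 368, 130 and 4 without control replicates 1 to 4 and 13, 269, 9 and 17 without *Fezf2 shRNA* replicates 1 to 4. The count of other hosts past the threshold (0) became 1 with the span offset (*Gm20388*), 0 to 2 with a library left out (2, *Gnl3* and *Srcap*, without control replicate 2) and 4 of 207 for hosts of any annotated snoRNA, a set added after the data were seen (2.09% of all genes tested were called). The interval of *Gm20388* spans 4434882 bases, had a control mean of 139428 normalized counts and contains *Rpl13*, so it does not measure a single host. The protein lists had 1 gene past it with DESeq2, with or without its prior, and the genes most like *Gas5* shared 1 of 5 by Spearman's rho. The causes were not tested.

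The replicate numbers share no stated origin, and same-numbered libraries had correlations of 0.31, 0.09, -0.13 and 0.17, with 2 of 4 controls correlating best with their own number. With the replicate block 90 genes were past the threshold, and 2 with block and span offset. Of the members with few reads (*Snhg6*, *Snhg12*, *Epb41l4aos*) only changes larger than their spread could be seen.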
